A study of Danio rerio with 15 samples.

Results

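Id proteins and the inhibitory Smads are intracellular brakes that bone morphogenetic protein (BMP) signalling switches on in its own target cells. BMP ligands bind serine-threonine kinase receptors, the receptors phosphorylate the receptor Smads, and these enter the nucleus with the common Smad. There they activate, among others, the *id* genes, the direct readouts most used for the pathway, and the genes of the inhibitory Smads. Id proteins are helix-loop-helix proteins without a DNA-binding region; they capture E proteins and so keep tissue-specific basic helix-loop-helix (bHLH) factors from pairing. Smad6 acts mainly against BMP receptors and Smad7 against both BMP and TGF-beta receptors, which makes their genes feedback inhibitors. The 8 genes described here, *id1*, *id2a*, *id2b*, *id3*, *id4*, *smad6a*, *smad6b* and *smad7*, were taken by symbol from the 3 pairwise tables that the authors deposited, which list 23926 gene IDs in all. Each symbol matched 1 row in every table. *id2a* with *id2b* and *smad6a* with *smad6b* are the zebrafish duplicates of a single mammalian gene, and reads shared between duplicates were not tested.

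The tissue was the caudal fin of zebrafish of the wild-type strain AB, for which no transgene, mutation or treatment is named, cut at 3 positions from the fin base to the tip, named proximal, middle and distal. There were 5 libraries at each position, and each was made from fin pieces pooled from 4 fish, 2 male and 2 female. The sources used here do not give the age of the fish. The design asks how transcripts differ along the axis on which fin cells are thought to keep a positional memory.

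The deposited tables hold 1 mean per gene and position. From the digits of each mean the 5 read counts that make it up were recovered, and levels below are these counts divided by the size factor of their library, a measure of its depth. They are given as the mean ± SD over 5 libraries. A gene was called where the authors' DESeq p-value, adjusted over their whole table, was under 0.05. The libraries held 9427432 to 12758421 reads in the 23443 genes solved uniquely, all 8 members among them. The first principal component held 56.7% of the variance and put the distal libraries at 60.2 to 74.5, the middle ones at −24.6 to −17.1 and the proximal ones at −52.8 to −44.7. A library is bulk tissue, so fewer cells of a type and less RNA per cell cannot be told apart.

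Of the 8 members, 5 rose from the proximal to the distal fin, namely all 3 inhibitory Smad genes with *id1* and *id2b*, and none fell. The authors called 17.9% of all 23404 genes higher in this comparison and 18.1% lower. Between the middle and the proximal fin no member was called, where 7.31% of all genes were. From the middle to the distal fin the same 5 members rose, where 13.3% of all genes did; these 2 comparisons share the distal libraries. In a limma fit of the recovered counts 25.8% of 18819 genes were called higher between distal and proximal fin, 20.4% between distal and middle fin, and 13.8% in either direction between middle and proximal fin. The median log2 fold change, distal over proximal, was 0.93 over the 3 inhibitory Smads, 0.50 over the 5 Id genes and −0.04 over all genes. In the comparison of middle and proximal fin, with 0 members called by DESeq and 0 by limma, 1 member had an unadjusted p under 0.05 by either tool, *id4*.

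**Figure D1:**
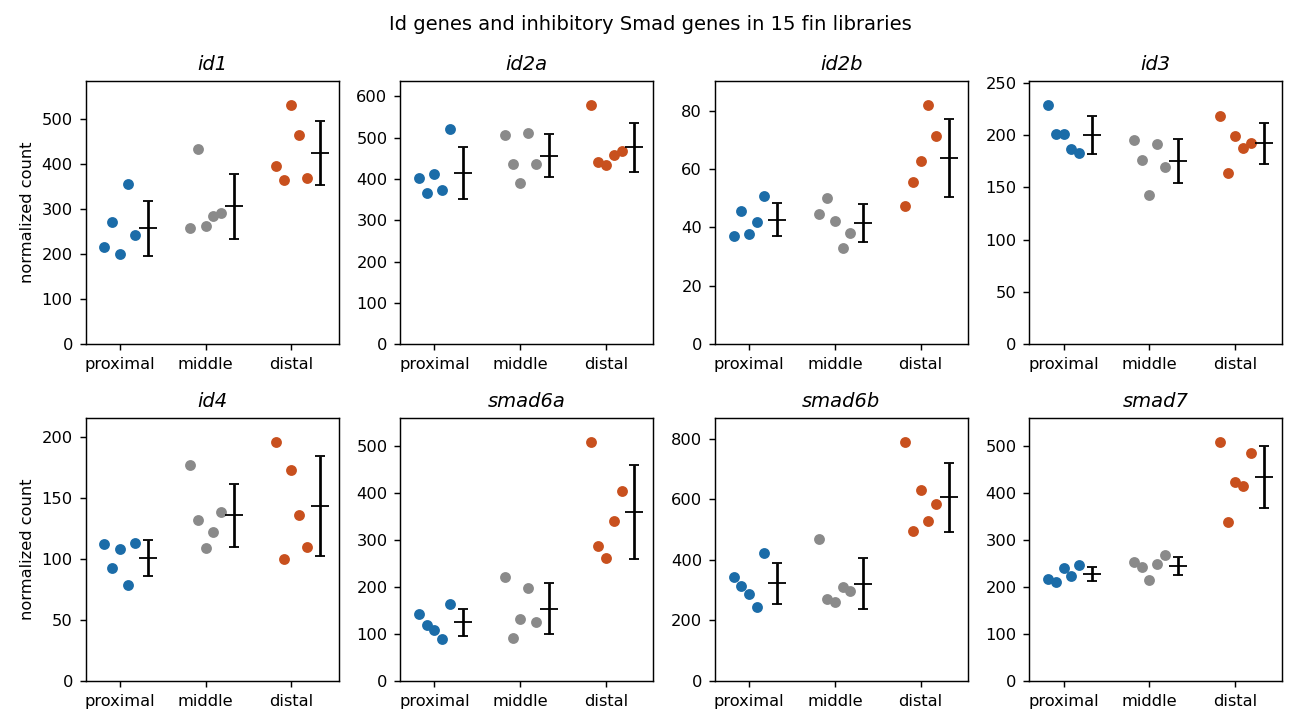
Normalized counts (y axis, from 0) of the 8 members in each of 15 libraries, by position (x axis). Points are libraries, the bar beside them is the mean ± SD of 5; the distal points of *smad6a*, *smad6b* and *smad7* lie above all points of the other positions.

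The inhibitory Smad genes had the largest folds of the members between distal and proximal fin, though none was tested against an Id gene. *smad6a* (ENSDARG00000053209), which encodes an inhibitor of the type I BMP receptors, stood at 143, 119, 108, 88.4 and 163 normalized counts in the proximal libraries. In the middle libraries it stood at 222, 91.4, 132, 198 and 126, and in the distal ones at 509, 286, 261, 341 and 403. Every distal library was above every library of the other positions, while the middle and proximal ranges overlapped. Of all genes tested, 18.7% had every distal library above every proximal one, and 14.5% every distal library above every middle one. Its mean was 124 ± 29.3 proximally, 154 ± 54.2 in the middle and 360 ± 99.7 distally. In the authors' deposited table *smad6a* was 2.9-fold higher distally than proximally (adjusted p = 6.41e-07) and 2.33-fold higher than in the middle (adjusted p = 0.000273). The fold of 1.24 between middle and proximal fin in the authors' deposited table was within the spread (adjusted p = 0.698).

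*smad6b* (ENSDARG00000031763), the other duplicate of mammalian Smad6, stood at 343, 315, 286, 243 and 424 normalized counts proximally. It stood at 470, 270, 261, 312 and 296 in the middle and at 791, 497, 630, 528 and 586 distally. The lowest distal library, at 497, was above the highest of the other 10, at 470. The means were 322 ± 67.9, 322 ± 85.3 and 607 ± 115, so the proximal and middle means were equal to 3 digits. The authors' deposited table gives *smad6b* as 1.88-fold higher distally than proximally (adjusted p = 7.47e-06) and 1.87-fold higher than in the middle (adjusted p = 8.34e-05).

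*smad7* (ENSDARG00000016858), whose product targets both BMP and TGF-beta receptors, stood at 216, 210, 241, 223 and 246 normalized counts proximally. The middle libraries held 253, 242, 214, 248 and 267 and the distal ones 509, 338, 424, 414 and 484. Here too every distal library was above all others, and the proximal and middle libraries were the tightest of the 3 Smad genes. The standard deviation was 6.82% of the mean proximally, close to the 6.5% that counting error alone gives at these reads, against 23.6% for *smad6a* and 21.1% for *smad6b*. Its means were 227 ± 15.5, 245 ± 19.7 and 434 ± 66.8. In the authors' deposited table *smad7* had the lowest adjusted p of the members, 1.26e-10, with a fold of 1.91 over the proximal fin, and 1.76 over the middle fin (adjusted p = 2.29e-08).

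Of the Id genes, *id1* (ENSDARG00000040764), a direct target of BMP receptor Smads, had the largest fold between distal and proximal fin. It stood at 215, 270, 200, 356 and 241 normalized counts proximally, at 257, 433, 262, 283 and 291 in the middle and at 394, 364, 530, 463 and 368 distally. The lowest distal library, at 364, was just above the highest proximal one, at 356, whereas the distal and middle ranges overlapped. The means were in order along the axis, 256 ± 61.9, 305 ± 72.7 and 424 ± 71.6. In the authors' deposited table *id1* was 1.65-fold higher distally than proximally (adjusted p = 0.00035) and 1.38-fold higher than in the middle (adjusted p = 0.0404). The call against the middle fin ended in a limma fit without middle library 1 (adjusted p = 0.051) or distal library 3 (adjusted p = 0.055).

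*id2b* (ENSDARG00000029544) had the fewest reads of the 8 genes, 34 to 73 per library. It stood at 37.1, 45.7, 37.7, 41.8 and 50.8 normalized counts proximally, at 44.5, 50, 42.3, 33 and 38 in the middle and at 47.3, 55.5, 62.6, 81.9 and 71.2 distally. In 4 of 5 distal libraries it was above every proximal and every middle library. The SD in the proximal libraries, 13.5% of the mean, was below the 15% given by counting error. In the authors' deposited table *id2b* was 1.49-fold higher distally than proximally (adjusted p = 0.0248) and 1.52-fold higher than in the middle (adjusted p = 0.0212).

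*id2a* (ENSDARG00000055283), its duplicate, ranged from 367 to 522 normalized counts proximally, 391 to 511 in the middle and 433 to 579 distally. These ranges overlapped, and no pair of positions was called. The authors' deposited table gives a fold of 1.15 for *id2a* between distal and proximal fin, with an adjusted p of 0.195. The 95% interval of that fold in limma ran from 0.987 to 1.35. *id2a* was called in limma without proximal library 5, which held the highest proximal value, at an adjusted p of 0.0226.

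*id3* (ENSDARG00000054823) stood at 200 ± 18.3, 175 ± 20.8 and 193 ± 19.5 normalized counts from proximal to distal. Its proximal libraries ran from 183 to 229 and its distal ones from 164 to 218. It was the single member with a lower mean distally than proximally, a sign that turned with positions scaled to equal totals (log2 fold change 0.01). The authors' deposited table gives it a fold of 0.962 with an adjusted p of 0.84. The limma interval of that fold was 0.83 to 1.12, and the p does not show that *id3* is equal at both ends.

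*id4* (ENSDARG00000045131) stood at 112, 92.4, 108, 78.7 and 113 normalized counts proximally. The middle libraries held 177, 132, 109, 122 and 138 and the distal ones 196, 100, 173, 136 and 110. Here 4 of 5 middle libraries but only 3 of 5 distal ones were above the highest proximal library, an order unlike that of the 5 members called. The distal SD was 28.6% of the mean, the widest among the Id genes. The authors' deposited table gives *id4* a fold of 1.42 between distal and proximal fin, with an adjusted p of 0.0667, and 1.34 between middle and proximal fin, with an adjusted p of 0.0897. The limma fit called it between distal and proximal fin (log2 fold change 0.48, SE 0.18, adjusted p = 0.0359). That call held in only 10 of 15 fits without 1 library, with the highest adjusted p, 0.118, without distal library 1. It also ended without proximal library 2 or 4 and without distal library 3 or 4. Every fit without a middle library kept the call, but the middle libraries are not among those compared.

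**Figure D2:**
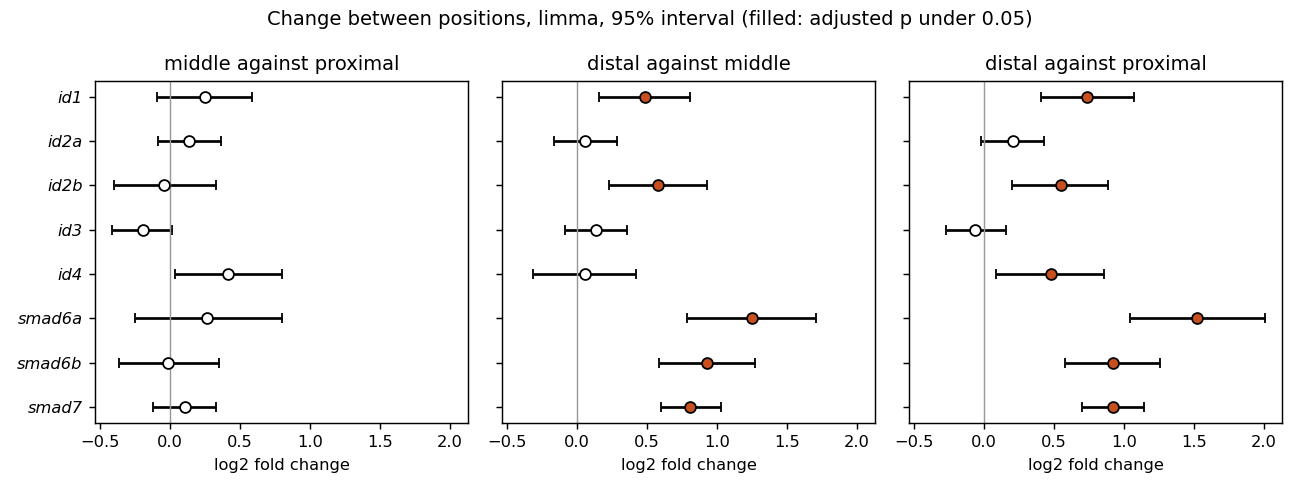
Log2 fold change (x axis) of each member (y axis) in 3 comparisons, from 1 limma fit of 15 libraries, with 95% intervals; filled points passed an adjusted p of 0.05. No member is filled between middle and proximal fin, where the interval of *id4*, 0.04 to 0.80, lies above 0 without a call, since intervals are not adjusted.

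Whether the distal step was larger than the proximal one was tested directly, as the log2 change from middle to distal minus that from proximal to middle (limma, all 15 libraries, adjusted over 18819 genes). *smad7* changed more in the distal step, by 0.71 ± 0.18 (SE) on the log2 scale (adjusted p = 0.0157), and so did *smad6b*, by 0.93 ± 0.29 (adjusted p = 0.044). Of all genes tested, 5.96% were called with a larger distal step in this sense. For *smad6a* the difference between the steps was 0.98 ± 0.41 (SE), as large as for *smad6b* but with a wider error (adjusted p = 0.142). With 1 library left out, the call of *smad7* held in 14 of 15 fits and ended without middle library 3 (adjusted p = 0.0568). That of *smad6b* was less stable and ended without any 1 of 10 libraries (highest adjusted p = 0.129, without middle library 3). The Id genes were not called, with differences from −0.37 for *id4* to 0.62 for *id2b*.

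In the authors' deposited table the folds of the called members, distal over proximal, ran from 1.49 for *id2b* to 2.9 for *smad6a*. To ask whether 2 members changed differently, 4 ratios of 2 genes within a library were compared between positions. Such a ratio does not depend on the scaling of the library. The log2 ratio of *smad6a* to *smad6b* was −1.38 ± 0.07 in the proximal, −1.10 ± 0.33 in the middle and −0.77 ± 0.29 in the distal libraries. Its difference of 0.60 between the ends had an exact permutation p of 0.0159 (two-sided, 5 against 5, where the smallest possible p is 0.00794) and 0.0952 after adjustment over the 12 ratio tests. The distal ratio was above the highest proximal one, −1.26, in 4 of 5 libraries, and −1.27 in the other.

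The log2 ratio of *id1* to *id3* was 0.33 ± 0.41 proximally and 1.13 ± 0.24 distally (difference 0.80, exact permutation p = 0.0238, adjusted p = 0.0952). That of *smad7* to *smad6a* was 0.90 ± 0.33 and 0.30 ± 0.25 (difference −0.60, exact permutation p = 0.0238, adjusted p = 0.0952). For *id2a* to *id2b* the values were 3.27 ± 0.19 and 2.91 ± 0.43 (difference −0.36, exact permutation p = 0.127, adjusted p = 0.171). So 3 of 12 ratio tests had an unadjusted p under 0.05 and 0 passed after adjustment. Over 12 tests a single ratio at the smallest possible p adjusts to 0.0952, so 1 ratio alone could not pass, and these tests do not show that the ratios are equal between positions.

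**Figure D3:**
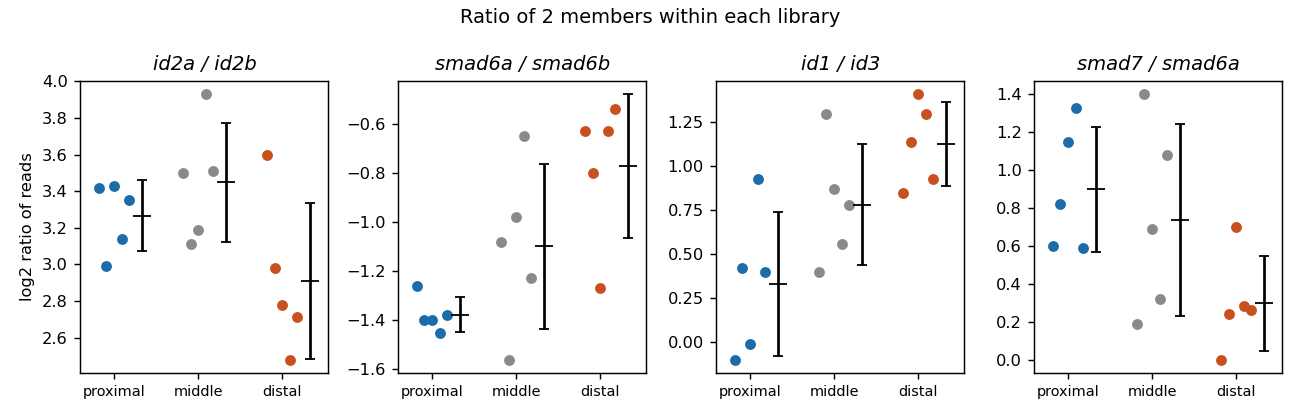
Log2 ratio of the reads of 2 members within each library (y axis) by position (x axis), for 4 pairs. Points are libraries and bars the mean ± SD of 5; the *smad6a* to *smad6b* ratio of the proximal libraries lies within −1.45 to −1.26 and that of the distal ones within −1.27 to −0.54.

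Within a position, different members were highest in different libraries. Libraries are numbered within each position from the highest size factor down, so an equal number does not link libraries of different positions. *smad6a*, *smad6b* and *id4* were highest in the same library at all 3 positions, proximal library 5, middle library 1 and distal library 1. *id1* was highest in proximal library 4, middle library 2 and distal library 3, which were the 3 libraries with the lowest *smad6a* of their position. *id1* was in turn lowest of the middle libraries in library 1, at 257, where *smad6a* stood at 222 and *smad6b* at 470, their highest middle values. *id3* was highest in library 1 at each position, the library of highest size factor there, at 229, 195 and 218 normalized counts. With 5 libraries a position these are descriptions without a test. Without distal library 1 the log2 fold change between distal and proximal fin in limma was 1.38 for *smad6a* (adjusted p = 5.27e-05) and 0.82 for *smad6b* (adjusted p = 0.000391).

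**Figure D4:**
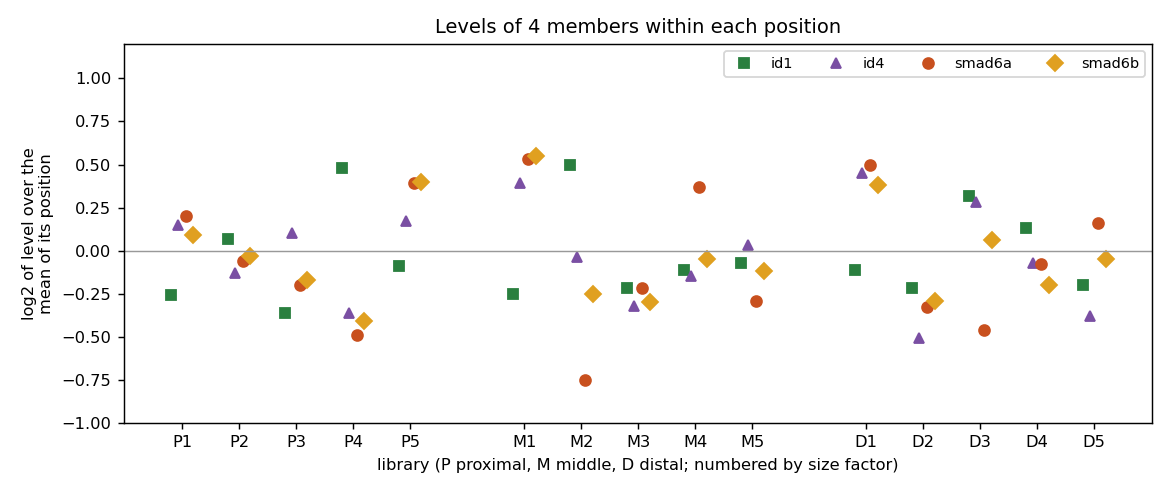
Log2 of the level of *id1*, *id4*, *smad6a* and *smad6b* over the mean of its position (y axis) in each library (x axis). Each symbol is 1 library, numbered by size factor within its position. *id1* is highest in P4, M2 and D3, where *smad6a* is lowest, and *smad6a*, *smad6b* and *id4* are highest in P5, M1 and D1.

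The genes whose profile over the 15 libraries was most like each member were found by the root mean square difference of centred log2 levels, among 15890 other genes with a symbol and a mean of at least 20. For *id1* they were *gale*, an enzyme gene of galactose metabolism (0.14), *her6*, a Hes-type repressor gene known as a Notch target (0.142), and *si:dkey-16l2.20* (0.151), with a median of 0.47 over all genes compared. *gale* was highest in proximal library 4, middle library 2 and distal library 3, as *id1* was. Its choice by likeness to *id1* over these same libraries favours this. For *smad6a* they were the arginase gene *arg2* (0.174), *slc35e4* (0.196) and the Tribbles pseudokinase gene *trib1* (0.198), against a median of 0.791. *trib1* stood at 193 ± 46.8, 273 ± 95.7 and 734 ± 204 normalized counts from proximal to distal.

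For *smad6b* the nearest were *sema6dl* (0.186), *rab11fip5a* (0.201) and the Krüppel-like factor gene *klf2b* (0.216), which stood at 1724 ± 342, 2212 ± 392 and 3301 ± 626 normalized counts. For *smad7* they were the histone deacetylase gene *hdac9b* (0.124), *sh3bp4a* (0.136) and the sarcoglycan gene *sgcb* (0.143). For *id2b* they were *snx25* (0.169), *KCNA4* (0.171) and *cds1* (0.181), for *id4* the transcription factor gene *tfap2a* (0.198), *upk1a* and *gys2* (0.205 each). *id2a* lay nearest to *ddx59* (0.0897), *gramd4b* (0.0903) and *bag5* (0.0947), and *id3* to *cbfb* and *si:dkeyp-87e7.4* (0.114 each) and *ppil4* (0.117). Other genes lay between the members. From *smad6b*, *smad7* lay at 0.235 with 17 other genes nearer, and from *smad6a*, *smad6b* lay at 0.337 with 63 nearer. The ranks differed in the reverse direction: 427 genes were nearer to *smad7* than *smad6b* was, and 579 nearer to *smad6b* than *smad6a* was. From *id4* the nearest member was *id2a*, at 0.259 with 120 other genes nearer. From *id1* the nearest member was *id2b*, at 0.296 with 1068 other genes nearer.

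Upstream of the members, BMP and GDF ligand genes were called 8 higher and 3 lower of 16 measured between distal and proximal fin, with a median log2 fold change of 0.69. In the authors' deposited table *bmp4* was 7.05-fold higher (adjusted p = 7.35e-100), *gdf6a* 3.96-fold (adjusted p = 2.04e-37) and *bmp7b* 3.48-fold (adjusted p = 9.03e-44), while *gdf10a* was 2.72-fold lower (adjusted p = 1.19e-17). The duplicates of *bmp7b* and *gdf10a* were called the other way there, *bmp7a* at a fold of 0.0928 (adjusted p = 1.22e-07) and *gdf10b* at 3.77 (adjusted p = 1.91e-16). *bmp7a* was low, with means of 26.4 normalized counts proximally and 2.45 distally. *bmp7b* stood at 193 ± 17.3, 248 ± 14.4 and 672 ± 17.9 normalized counts and *gdf6a* at 74.5 ± 24.6, 74 ± 6.26 and 295 ± 31.9, and the larger part of each rise in mean lay between middle and distal fin. Extracellular antagonist genes were called 8 higher and 3 lower of 14 (median 0.67). They moved in both directions even between duplicates: in the authors' deposited table *sostdc1b* was 38.1-fold higher and *sostdc1a* 18.6-fold lower distally (adjusted p = 2.7e-29 and 5.81e-40). Both folds rest on a low level at 1 end. From proximal to distal fin *sostdc1b* went from 1.15 ± 1.74 to 43.9 ± 7.57 normalized counts, and *sostdc1a* from 78.6 ± 13.5 to 4.22 ± 1.7. The follistatin gene *fstb*, an activin and BMP antagonist, was 5.97-fold lower there, in the authors' deposited table (adjusted p = 4.25e-79). Its duplicate *fsta* was called the other way in that table, 2.62-fold higher distally (adjusted p = 3.69e-16). *fsta* stood at 65.9 ± 6.81 normalized counts proximally and 172 ± 26.4 distally.

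Receptor genes were called 6 higher and 3 lower of 16 measured, with a median log2 fold change of 0.06. Higher distally in the authors' deposited table were *acvrl1*, a type I receptor gene known from endothelium (2.36-fold, adjusted p = 4.47e-26), *bmpr1ab*, a type I BMP receptor gene (2.24-fold, adjusted p = 7.26e-20), and the type II receptor gene *bmpr2b* (1.74-fold, adjusted p = 5.9e-12). The co-receptor gene *tgfbr3* was 1.64-fold lower (adjusted p = 8.29e-10) in the authors' deposited table. *acvrl1* stood at 620 ± 72.5, 635 ± 18.9 and 1461 ± 88.5 normalized counts, flat between proximal and middle fin as *smad6b* was.

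Smads that carry the signal were also looked up. The 6 genes measured were all receptor Smads, and no common Smad gene was found by its symbol. Of these 6 receptor Smad genes, 2 were called higher distally and none lower. Both are *smad3* duplicates, which carry activin and TGF-beta signals: *smad3a* was 1.87-fold (adjusted p = 9.12e-15) and *smad3b* 1.85-fold higher (adjusted p = 4.2e-10) in the authors' deposited table. The BMP receptor Smad genes were not called. *smad1* stood at 451 ± 40.5 normalized counts proximally and 381 ± 37.8 distally, *smad5* at 481 ± 27.4 and 481 ± 39.9, and *smad9* at 112 ± 14.6 and 118 ± 11.4. Their folds in the authors' deposited table were 0.845, 0.999 and 1.05. Among other regulators of the Smad signal 8 of 17 were called higher and 1 lower. They include *pmepa1*, a TGF-beta induced inhibitor of receptor Smads (3.24-fold), and the Smad co-repressor genes *skib* (2.52-fold) and *skila* (2.1-fold), with adjusted p from 2.62e-31 to 2.24e-19 in the authors' deposited table; the ubiquitin ligase gene *wwp1* was 1.41-fold lower (adjusted p = 0.000186).

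Downstream are the E protein genes, whose products Id proteins bind. *tcf12* was 1.27-fold higher distally in the authors' deposited table (adjusted p = 0.00556), and it was the single one called of 3 measured. *tcf3a* stood at 884 ± 44.5 normalized counts proximally and 990 ± 46.5 distally and *tcf3b* at 1380 ± 117 and 1459 ± 176. Tissue bHLH factor genes were called 5 higher and 1 lower of 17. *twist2* and *twist1a*, mesenchymal factors that pair with E proteins, were 2.06-fold and 2.05-fold higher and *her6* 1.63-fold (adjusted p = 2.73e-12, 1.49e-08 and 0.000346), and the tendon factor gene *scxa* was 1.5-fold lower (adjusted p = 0.0108), all in the authors' deposited table. Of 12 other genes known to respond to BMP, 7 were called higher and 2 lower, with a median log2 fold change of 0.59. The distal-less genes *dlx5a*, *dlx6a* and *dlx3b* were 4.25-fold, 5.09-fold and 3.61-fold higher (adjusted p = 2.49e-45, 6.45e-23 and 5.79e-11), and *gata3* was 2.88-fold lower (adjusted p = 7.89e-11), in the authors' deposited table.

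**Figure D5:**
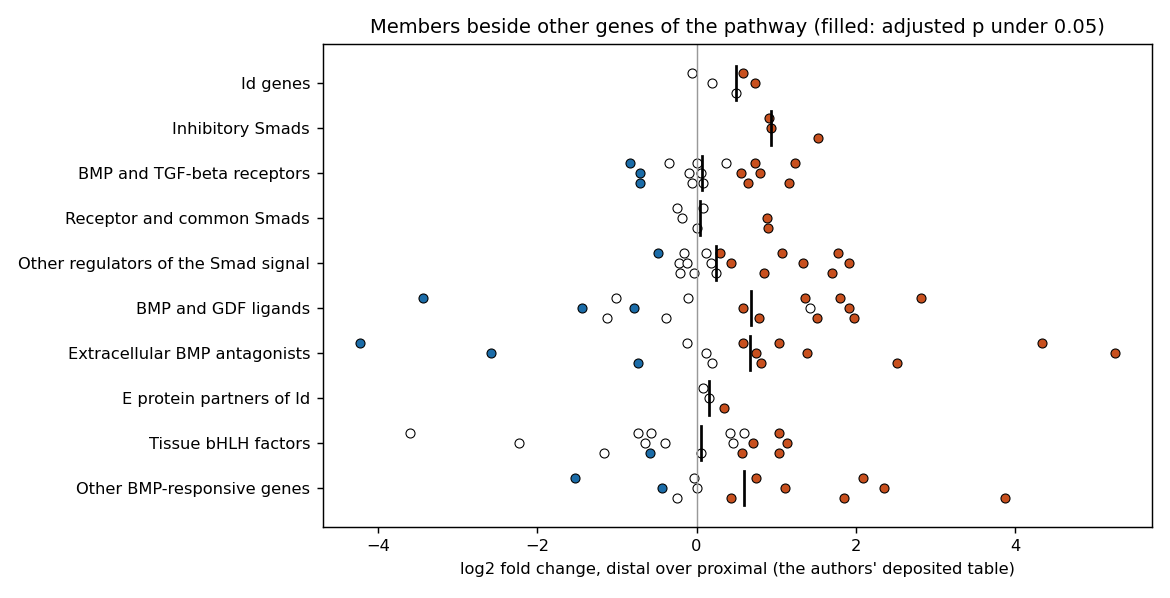
Log2 fold change, distal over proximal, from the authors' deposited table (x axis) for the members and for 8 lists of pathway genes (y axis). Each point is a gene, filled orange where called higher, blue where called lower and open where not called. The bar is the list's median, 0.93 for the inhibitory Smads and 0.04 for the list of receptor and common Smads. Only receptor Smads of that list were measured.

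Markers of the cell types that fin tissue can hold moved along the same axis. Of 9 endothelial markers measured, 4 were called higher and 3 lower distally, with no marker at 0. Their summed level was lowest at 1732 and highest at 2348 normalized counts over the proximal libraries, at 1761 and 1922 over the middle ones and at 2365 and 2609 over the distal ones. Called higher in the authors' deposited table were *erg* (2-fold, adjusted p = 1.09e-07), *tie1* (1.78-fold, adjusted p = 1.94e-08), *pecam1* (1.53-fold, adjusted p = 9.04e-06) and *fli1a* (1.49-fold, adjusted p = 7.27e-05). Called lower there were *cdh5*, the endothelial cadherin gene (fold 0.0915, adjusted p = 1.32e-08), *flt1* (0.416, adjusted p = 9.11e-05) and *tek* (0.634, adjusted p = 0.00923). *cdh5* had few reads, with mean normalized counts of 35.4, 1.52 and 3.24 from proximal to distal. Of 9 osteoblast markers 4 were called higher and 1 lower, with sums of 2833 to 6993 proximally, 2429 to 4052 in the middle and 6076 to 9281 distally. These sums include *col10a1a*, with means of 2658, 1675 and 5082 from proximal to distal, and the marker called lower was *runx2b*. All 6 melanophore markers were called higher, with sums of 1207 to 1662, 1588 to 2600 and 3951 to 5641. Epidermal markers were called 4 higher and 2 lower of 7. The sum of the 5 of them solved uniquely ran from 33328 to 36684, 50551 to 60528 and 38839 to 45183. Among these 5, *krtt1c19e* alone had means of 5025, 21583 and 1985 from proximal to distal. The means of *cdh1*, *epcam* and *cldne* rose at both steps, and that of *tp63* was 6142, 6935 and 5304. Of 6 fibroblast markers, 4 were called higher and 1 lower, with sums of 6206 to 7599 proximally and 7007 to 8061 distally over 5 genes. These sums join opposite changes. The marker called lower was *dcn*, with means of 2334 proximally and 1163 distally, while *lum* (3283 and 4221) and *pdgfra* (863 and 1790) were called higher. Muscle, Schwann cell, leukocyte and iridophore markers were called 2 higher and 12 lower of 22 in all. Sums of muscle markers ran from 124 to 243 proximally and 71.8 to 91.7 distally. Those of Schwann cell markers ran from 3308 to 4044 and 2625 to 3135, and of iridophore markers from 1275 to 1677 and 1138 to 1245. The Schwann cell sums include *erbb3b*, which was not called, with means of 2379 proximally and 2238 distally. *mbpa*, *mpz*, *plp1b* and *egr2b* were called lower and *sox10* higher. The leukocyte sums were higher distally, 13010 to 16578 and 17136 to 20719. Most of each sum was *cd74a*, called higher with means of 12800 and 17641. It was the only 1 of 6 leukocyte markers called higher, and 4 were called lower. Those 4 were *ptprc*, with means of 643 proximally and 343 distally, *lcp1* (226 and 160), *mpx* (208 and 75.3) and *coro1a* (498 and 333). The erythrocyte markers measured, *hbaa1* and *alas2*, were both called higher, with sums of 42 to 230 proximally and 100 to 801 distally. The part of these cell types in the changes of the members was not tested.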

How the data were processed

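RNA depleted of ribosomal RNA was sequenced as 50 bp pairs, per the labels' protocols. TopHat2 2.0.13, HTSeq, DESeq and the GRCz10 build are named in the submitters' processing notes, without their roles; the sources used here give neither annotation nor strand setting. The deposited signal columns are the authors' mean normalized counts per position, scaled within a pair of positions. The authors' deposited fold is the ratio of these means with 0.001 added to both, recomputed for every gene, and the deposited log2 value is its log2. The authors' p-value columns hold the DESeq p-value and its adjustment over the table, recomputed within 1e-06 for every gene.

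Each mean is printed with up to 15 digits and averages 5 whole counts scaled by library size factors. Low-count genes gave the factors, and the counts were found by lattice reduction for 23443 of 23495 genes uniquely. The size factors recomputed from these counts differed from those read by at most 0.0135%. In the authors' table of monotonic genes (headed rpm but of the same kind), over the genes not used to set its scale, all 567, 567 and 564 means per position were met within 1e-13. In simulated data all counts solved uniquely were right. Library numbers follow the size factor, not the labels. The labels do not say whether the pools came from separate batches of fish, so p-values measure the spread between these pools.

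Counts were fitted with limma 3.58.1 (voom, R 4.3.3, at least 10 reads in at least 5 libraries, 18819 genes). In simulated data it called 44.8%, 89.6% and 100% of genes changed 1.5, 2 and 4-fold between distal and proximal fin. The simulated spread was set by a formula of the mean and not taken from the members, so these are not rates for the members. Ratios used 0.5 added to the reads and exact permutation tests (scipy 1.17.1). Calls rest on the authors' statistics, since the tables give means; limma is the alternative and gives intervals and the test of the steps. The members, lists and tests were chosen with earlier results of these data known. Named were all members, the 3 most alike genes of each, and per list up to 3 called genes of lowest adjusted p with 1 of the other direction. *bmp7a*, *gdf10b* and *fsta* were added as duplicates of named genes called in the other direction. Levels of different genes were not compared, since no transcript lengths were used. The 52 genes not solved uniquely were left out of the fits, no library was left out, and no batch is labelled. Those 52 genes held many reads. With them the mean normalized total was 18525731 proximally and 17689470 distally. Without them the libraries held 10812641 to 11335807 proximally and 11285988 to 11810914 distally.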

Additional observations from a re-analysis of the deposited data

Results flagged for a closer look

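Of 36 groups of 5 libraries checked (8 members and 4 ratios at 3 positions), 3 had a library far from the others, where chance gives about 1 in 20. *id1* stood at 433 normalized counts in middle library 2 and at 257 to 291 in the other 4; without that library its log2 fold change from middle to distal fin was 0.62 in limma (adjusted p = 0.00233). *id2a* stood at 579 in distal library 1 and at 433 to 468 in the others; without it the log2 fold change between distal and proximal fin was 0.13 (adjusted p = 0.324). *smad6b* stood at 470 in middle library 1 and at 261 to 312 in the others; without it the difference between the steps was 1.24 on the log2 scale (adjusted p = 0.0063).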

How the results depend on the processing

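No paired analysis was possible because the deposited columns carry means and the recovered libraries have no replicate numbers. Against 5 members called by the authors, limma called 6 between distal and proximal fin, adding *id4*, and 5 to 7 when a library was left out; between distal and middle fin it called 5, and 4 to 5 without 1 library; between middle and proximal fin it called 0 under every setting. The fits without 1 library called, in either direction, 8941 to 9811 of 18677 to 18753 genes between distal and proximal fin. Between distal and middle fin they called 6460 to 7487. At an adjusted p under 0.01 the authors' statistics called 4 members between distal and proximal fin, *id1* and the inhibitory Smads, in place of 5. Between distal and middle fin they called 3, all inhibitory Smads, in place of 5. The share of all genes under 0.01 is not given here. The count of members with a larger distal step, 2, was 0 under 0.01. It was 1 with each library's total over the uniquely solved genes as scale. It was also 1 with positions scaled to equal totals over all genes, an alternative chosen after seeing the data. Without 1 library it was 0 to 2. The cause was not tested. With 1 library left out, the smallest exact p of a ratio is 0.0159, so those ratio tests could hardly pass after adjustment and say nothing of stability. For single members 597 values under other settings kept direction and side, 18 lost the call, 16 gained one and 17 changed sign, all 17 uncalled and near 0. On the log2 scale, with positions scaled to equal totals, these were 0.02 for *id2b* and 0.05 for *smad6b* from proximal to middle fin and 0.01 for *id3* between the ends. Without 1 library, values ran from -0.10 to 0.04 for *id2b* and -0.16 to 0.10 for *smad6b* from proximal to middle fin, from -0.01 to 0.11 for *id2a* and -0.08 to 0.18 for *id4* from middle to distal fin, from -0.11 to 0.00 for *id3* between the ends and from -0.19 to 0.00 for the step difference of *id2a*. *id2a* was called between distal and proximal fin with positions scaled to equal totals (adjusted p = 0.0405), and *id4* under 4 of 6 settings and in 10 of 15 fits without 1 library. Scaling moved the median of all genes by less than 0.1. Depth limits *id2b*, at 34 to 73 reads.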

Other observations

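In the RefSeq annotation of GRCz12tu, a build other than that of the files, used here for gene order alone, *smad3a* is the next protein-coding gene beside *smad6a* and *smad3b* beside *smad6b*. In the authors' deposited table the 4 genes were all higher distally than proximally, 1.87-fold for *smad3a*, 2.9-fold for *smad6a*, 1.85-fold for *smad3b* and 1.88-fold for *smad6b*. The gene on the other side of *smad6b*, *snapc5*, had a fold of 1.11 (adjusted p = 0.649). Between middle and proximal fin the folds in that table were 1.39 for *smad3a* (adjusted p = 0.000521), 1.24 for *smad6a* (adjusted p = 0.698), 1.08 for *smad3b* (adjusted p = 0.809) and 1 for *smad6b* (adjusted p = 1); differences between these genes were not tested.

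Beside other members the neighbours moved both ways in the authors' deposited table. *id1* lies between *ncoa3*, 1.31-fold higher distally (adjusted p = 0.00108), and *pfkfb2b*, at a fold of 0.726 (adjusted p = 0.00618). *id2a* and *id2b* each lie beside a *kidins220* duplicate, *kidins220a* with a fold of 0.878 (adjusted p = 0.178) and *kidins220b* with 1.16 (adjusted p = 0.124). The other neighbour of *id2a*, *eif2s1a*, had a fold of 0.793 (adjusted p = 0.0164). The neighbours of *id4*, *ncalda* and *cep76*, had folds of 1.05 (adjusted p = 0.743) and 0.809 (adjusted p = 0.394). The other neighbour of *id2b*, *rnf144ab*, was 1.59-fold higher (adjusted p = 1.6e-05), and *dym*, beside *smad7*, had a fold of 0.912 (adjusted p = 0.426). No value was found for *e2f2* and *msrab* beside *id3*, *ctif* beside *smad7* and *crybgx* beside *smad6a*. These neighbours were looked up after the values of the members were seen.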
